A study of Mus musculus with 2 samples.

Results

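The genes described here set and release the brake on the G1 to S phase transition: 3 D-type cyclins (Ccnd1, Ccnd2 and Ccnd3), the kinase Cdk6, the 4 INK4 inhibitors (Cdkn2a, Cdkn2b, Cdkn2c and Cdkn2d), the CIP/KIP inhibitor Cdkn1b and the pocket protein Rb1. They were chosen by symbol, and all 10 were among the 24346 symbols listed for both libraries. Bulk RNA-seq was performed on GFP+CD4+ cells of FDG mice, a strain in which the diphtheria toxin receptor and GFP are expressed from the Foxp3 locus, so that GFP marks Tregs. Both groups carried this allele and both had received 50 μg of bleomycin (BLM), a drug that injures the lung and leads to fibrosis, into the trachea. The mice were 10 to 16 weeks old and matched for age and sex. On day 15 cells were sorted, and 3 mice were pooled for the library of spleen Tregs and for that of lung Tregs. An untreated group was not analysed here, so each comparison is between tissues of BLM-treated mice. There was 1 library per tissue, hence no replicates and no test of any difference.

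D-type cyclins bind CDK4 or CDK6, and the active kinase phosphorylates Rb and its relatives, which releases E2F transcription factors and lets a cell enter S phase. INK4 proteins bind CDK4 and CDK6 themselves and keep the cyclins off, whereas CIP/KIP proteins such as p27 bind complexes of cyclin and CDK, CDK2 complexes above all. Resting T cells hold p27 high and induce D-type cyclins and CDK6 after stimulation through the T cell receptor and IL-2.

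The values were FPKM, which count the fragments of a gene relative to its exon length and to the mapped total, and which can therefore be compared between genes of different length. At an effective transcript length of 1 kb, 1 read was worth 0.0964 FPKM in the spleen library and 0.0849 FPKM in the lung library, which gave estimated totals of 9646893 and 12631042 reads. For ratios, FPKM under 0.1 were set to 0.1. Intervals given below are 95% exact intervals of these estimated reads and cover counting error only, since cDNA was amplified by PCR without molecular identifiers. The libraries differed by more than that: of 535 genes with 40 to 60 estimated reads in spleen, 17.0% had at most 3 reads in lung, and of 519 such genes in lung, 20.2% had at most 3 in spleen.

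The labelled cell type was checked on its markers. Foxp3 itself was at 18.7 FPKM in spleen and 41.8 FPKM in lung. Its list of 6 Treg markers summed to 911 and 1693 FPKM, with 3 of 6 higher in lung. T cell markers were at similar sums, 3164 FPKM in spleen and 2819 FPKM in lung, with 1 of 6 higher in lung. Markers of other cells differed more. All 8 macrophage markers were higher in lung, with sums of 657 and 26084 FPKM in spleen and lung, of which Lyz2 gave 376 and 24947 FPKM. Sums of epithelial markers were 12.5 FPKM in spleen, where Sftpc, Sftpb and Krt8 were listed at 0, and 3127 FPKM in lung, with 4 of 6 higher in lung. Scgb1a1 gave 1.48 and 3021 FPKM of these sums. Epcam, at 8.75 and 1.79 FPKM, and Ager, at 2.27 and 1.74 FPKM, were lower in lung. Of the fibroblast markers, which summed to 0.290 and 47.2 FPKM, all 6 were higher in lung, and Col3a1, Lum and Pdgfra were at 0 in spleen. Neutrophil markers summed to 404 and 1159 FPKM, with 3 of 5 higher in lung and with Mpo and Elane at 0 there. Dendritic cell markers summed to 7.73 and 28.4 FPKM, with Clec9a at 0 in lung and 2 of 5 higher in lung. B cell markers summed to 239 and 123 FPKM, with 0 of 5 higher in lung. Endothelial markers summed to 55.3 and 34.3 FPKM, of which Pecam1 gave 54.8 and 31.7 FPKM. Of these markers 3 of 5 were higher in lung, namely Vwf, at 0.425 and 2.03 FPKM, and Cdh5 and Tek, at 0 in spleen. Kdr was at 0 in lung. The part of these cells in the levels below was not tested, and in a bulk library fewer cells of a type and less RNA per cell cannot be told apart.

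Of the 10 genes, 9 reached 1 FPKM in at least 1 library, and Cdkn2a did not. The inhibitors Cdkn2b and Cdkn2c were over 2-fold higher in the library of lung Tregs, and the other 7 differed by less than 2-fold. Thus 2 of 9 were over 2-fold higher, beside 17.8% of the 12094 genes that reached 1 FPKM, and 0 of 9 were over 2-fold lower, beside 15.5% of those genes. The share of genes past 2-fold depended on the level. At 10 FPKM or more, 1 of 7 members (Cdkn2c) was past 2-fold towards lung and 0 towards spleen, beside 11.6% and 9.15% of 7279 genes. The members' median log2 ratio of lung to spleen was 0.29, and that of all 12094 genes was 0.03. The count of members past 2-fold was thus near the background, and the genes are described singly.

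**Figure D1:**
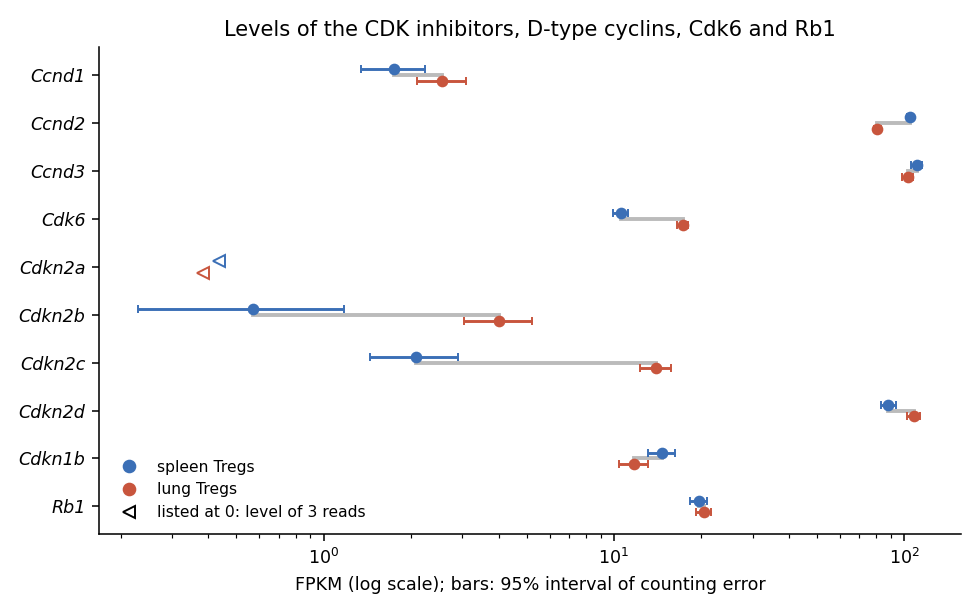
FPKM of each member (log axis) in the library of spleen Tregs (blue) and of lung Tregs (red), with bars for the 95% interval of counting error and open triangles at the level of 3 reads for Cdkn2a, which was listed at 0. Ccnd2, Ccnd3 and Cdkn2d lie near 100 FPKM in both libraries, and the widest gaps between tissues are those of Cdkn2b and Cdkn2c.

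**Figure D2:**
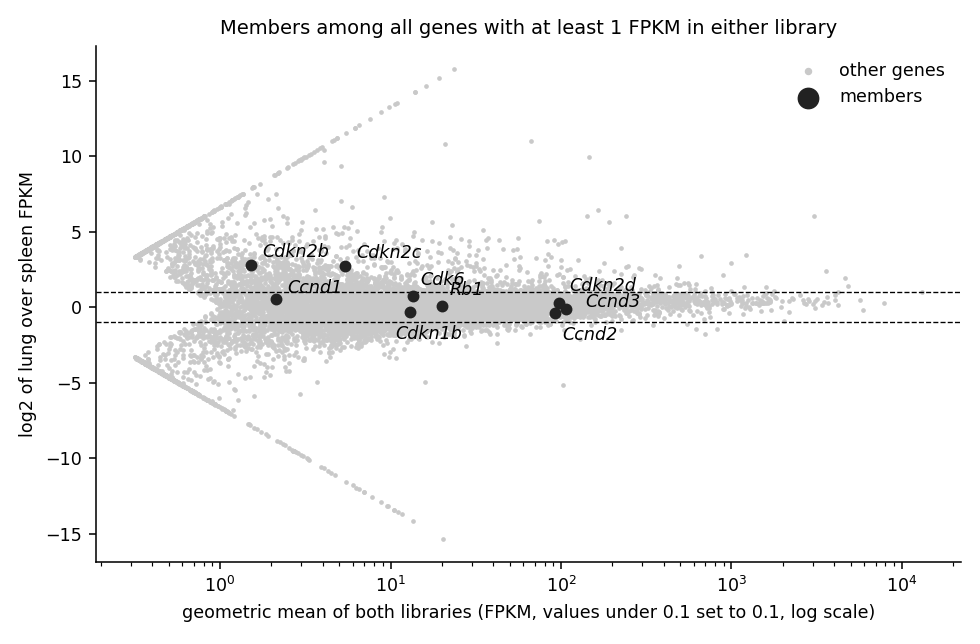
Log2 ratio of lung to spleen FPKM against the geometric mean of both libraries (FPKM, log axis, values under 0.1 set to 0.1) for all genes with at least 1 FPKM in either library (grey) and the 9 members among them (black), with dashed lines at 2-fold. Cdkn2b and Cdkn2c lie above the upper line among many other genes of their level, and the other 7 members lie between the lines.

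Among the D-type cyclins, Ccnd3, the form that is prominent in lymphocytes, was the highest in both libraries, at 110 FPKM in spleen and 103 FPKM in lung. Its ratio of spleen to lung was 1.07 (95% interval 1.01 to 1.14). Ccnd2, which is induced by mitogens and cytokines in T cells, was at 105 FPKM in spleen and 80.8 FPKM in lung, 1.29-fold lower in lung (1.25 to 1.34). Ccnd1, the form typical of epithelial and mesenchymal cells, was at 1.75 FPKM in spleen and 2.56 FPKM in lung, 1.46-fold higher in lung (1.06 to 2.02) and based on 64.0 and 106 estimated reads. Ccnd2 and Ccnd3 thus made up nearly the whole of the family in both tissues, while Ccnd1 held 0.807% of its summed FPKM in spleen and 1.37% in lung. Within a library these shares do not depend on the scaling between libraries. The share of Ccnd2 was 48.3% in spleen (47.1% to 49.5%) and 43.5% in lung (42.3% to 44.7%). The share of Ccnd3 was 50.9% (49.6% to 52.1%) and 55.2% (53.9% to 56.4%), so that Ccnd3 exceeded Ccnd2 by 1.05-fold in spleen and 1.27-fold in lung. The genes lie on separate chromosomes of mm10, Ccnd1 at chr7:144929931-144939925 and Ccnd2 at chr6:127125162-127152193 on the minus strand and Ccnd3 at chr17:47505051-47599691 on the plus strand. The sum of the 3 cyclins was 217 FPKM in spleen and 186 FPKM in lung.

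Cdk6 (chr5:3341485-3531008, plus strand), a catalytic partner of these cyclins, was at 10.5 FPKM in spleen and 17.2 FPKM in lung, 1.64-fold higher in lung (1.53 to 1.76). Its partner kinase Cdk4 went the other way, at 128 FPKM in spleen and 67.7 FPKM in lung, 1.89-fold lower in lung (1.77 to 2.02). Cdk4 remained the higher of the pair, but the ratio of Cdk4 to Cdk6 was 12.1 in spleen (11.3 to 13.0) and 3.93 in lung (3.68 to 4.19). Cdk6 accordingly made up 7.61% of their sum in spleen and 20.3% in lung. This shift between the kinases is a comparison within each library and holds under any scaling between them. As deposited, neither kinase alone passed 2-fold, but the log2 ratio of Cdk4, -0.92, was -1.35 under TPM and -1.09 under equal upper quartiles, both past 2-fold lower. Among the 7279 genes at 10 FPKM or more, 1313 had a ratio at least as high as that of Cdk6.

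Cdkn2d (chr9:21288410-21291407, minus strand), which encodes p19Ink4d, had the highest FPKM of the INK4 genes in both libraries. It was at 88.1 FPKM in spleen and 108 FPKM in lung, 1.22-fold higher in lung (1.13 to 1.32). It ranked 1138 among all symbols in spleen and 1118 in lung. Cdkn2c, which encodes p18Ink4c, was at 2.07 FPKM in spleen and 13.9 FPKM in lung, 6.73-fold higher in lung (4.68 to 9.90). It ranked 9922 in spleen and 5414 in lung. Its estimated reads, 33.9 in spleen and 259 in lung, depend on which of 2 transcripts was present: with the shorter (1106 nt) they were 19.3 and 147, and with the longer (2471 nt) 48.6 and 371. Cdkn2b, which encodes p15Ink4b, an inhibitor known to be induced by TGF-β, was at 0.570 FPKM in spleen and 4.02 FPKM in lung, 7.05-fold higher in lung (3.20 to 18.3). The spleen value rested on only 6.98 estimated reads and the lung value on 55.8. Other genes had ratios as high. Of the 12094 genes that reached 1 FPKM, 7.52% had ratios at least as high as Cdkn2c and 7.33% as high as Cdkn2b. By level, each gene was placed by the larger of its values. Cdkn2c thus fell among the genes at 10 FPKM or more through its lung value alone. Of those genes, 263 (3.61%) had a ratio at least as high. Cdkn2b fell among the 4815 genes between 1 and 10 FPKM, of which 636 (13.2%) had a ratio at least as high. These shares come from different classes and do not rank Cdkn2c against Cdkn2b.

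Cdkn2a, which encodes p16Ink4a and, from another first exon and reading frame, the p53 activator p19Arf, was listed at 0 in both libraries. A count of 0 allows up to 3 reads, a level of 0.436 FPKM for the spleen library and of 0.384 FPKM for the lung library. Its level was therefore not detectable at this depth, and no ratio is given. Because the transcripts of p16Ink4a and p19Arf share exons and the files give 1 value per symbol, the limit holds for the gene as listed. Within the INK4 family, the share of Cdkn2d was 97.1% in spleen (96.1% to 97.9%) and 85.7% in lung (84.1% to 87.2%). The share of Cdkn2c was 2.28% in spleen (1.59% to 3.19%) and 11.1% in lung (9.83% to 12.5%), and that of Cdkn2b was 0.628% (0.254% to 1.29%) and 3.20% (2.43% to 4.14%). Cdkn2d exceeded Cdkn2c by 42.5-fold in spleen and 7.73-fold in lung, and it exceeded Cdkn2b by 155-fold and 26.8-fold. The ratio of Cdkn2c to Cdkn2b, in contrast, was close in both tissues, 3.64 in spleen (1.59 to 9.71) and 3.47 in lung (2.58 to 4.70). The sum of the family was 90.8 FPKM in spleen and 126 FPKM in lung.

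The genes of this family that differed most between the tissues, and the neighbour that was not detected, are shown here by the sequence before their start sites. Cdkn2a and Cdkn2b lie side by side on the minus strand of chromosome 4, within 36569 bases of mm10 (chr4:89274471-89311039) and 11645 bases apart, and Cdkn2c lies farther along the same chromosome (chr4:109660876-109667189). The sequences are from the RefSeq promoter table (GRCm38.p6, the build of mm10), minus strand, from the 250 bases before each start with annotated exons left out. The stretch for Cdkn2b (chr4:89311040-89311282) ends 7 bases before the start, the upstream Cdkn2a start is that of the p19Arf transcript (chr4:89294654-89294869, ending 34 bases before it) and the downstream start that of p16Ink4a (chr4:89282193-89282442). For Cdkn2c the start of the shorter transcript is shown (chr4:109665373-109665609). Capitals mark matches on either strand to the GC box, written GGGCGG, to the E2F motif, written TTTNNCGC, to the FOXO motif, written GTAAACA, to the E-box, written CACGTG, to the TATA box with its letters TATAAA, to the CRE, written TGACGTCA, and to the 5 letters of a CCAAT box. None of these motifs contains another, and no matches overlap in the stretches shown.
Cdkn2b: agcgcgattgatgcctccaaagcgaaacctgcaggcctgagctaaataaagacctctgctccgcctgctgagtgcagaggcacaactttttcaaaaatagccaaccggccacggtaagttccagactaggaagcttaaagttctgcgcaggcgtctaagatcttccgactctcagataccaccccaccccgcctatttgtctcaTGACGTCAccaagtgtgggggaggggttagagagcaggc
Cdkn2a, upstream start: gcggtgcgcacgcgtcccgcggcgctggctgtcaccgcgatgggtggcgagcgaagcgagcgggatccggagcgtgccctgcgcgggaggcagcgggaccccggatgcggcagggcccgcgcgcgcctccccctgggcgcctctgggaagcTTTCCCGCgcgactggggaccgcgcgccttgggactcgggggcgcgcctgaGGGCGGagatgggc
Cdkn2a, downstream start: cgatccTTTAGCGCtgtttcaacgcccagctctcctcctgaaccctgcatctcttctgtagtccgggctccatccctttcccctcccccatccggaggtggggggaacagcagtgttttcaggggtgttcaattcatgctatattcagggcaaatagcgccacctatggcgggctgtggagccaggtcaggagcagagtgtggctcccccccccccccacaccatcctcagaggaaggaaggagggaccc
Cdkn2c, shorter transcript: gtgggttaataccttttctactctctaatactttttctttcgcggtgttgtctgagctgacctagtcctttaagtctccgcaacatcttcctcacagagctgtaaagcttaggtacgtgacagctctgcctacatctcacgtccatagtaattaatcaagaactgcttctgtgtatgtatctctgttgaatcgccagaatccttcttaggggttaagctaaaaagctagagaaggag

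The window of Cdkn2b held a CRE, whose first base lay 46 bases before the start, and none of the other letters. A CRE was found in 1.55% of the 32851 windows of the same length in the table. Both starts of Cdkn2a had an E2F match, 99 bases before the start upstream and 244 bases before it downstream, compared with 4.28% of all windows. The upstream start also had a GC box, as had 32.7% of windows, and a further one inside the exon. In the window of the shorter Cdkn2c transcript none of these letters was present, and the window of its longer transcript, which lies in annotated exon, held 3 GC boxes. The windows differed in base composition too, with 53.6% G and C and 12 CpG for Cdkn2b, 78.4% and 40 CpG for the upstream Cdkn2a start, 60.0% and 7 CpG for the downstream start, 42.8% and 6 CpG for the shorter Cdkn2c transcript and 77.2% and 29 CpG for the longer, beside medians of 52.4% and 6 over all windows. Across all windows FOXO letters were present in 3.17%, E-boxes in 6.02%, TATA boxes in 12.4% and CCAAT boxes in 33.9%. The CRE and the CCAAT box were added to the motifs after the sequences had been seen. A match describes the letters of the window and is not a measured binding site.

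Cdkn1b (chr6:134920401-134925513, plus strand), which encodes p27Kip1, was at 14.6 FPKM in spleen and 11.7 FPKM in lung, 1.25-fold lower in lung (1.07 to 1.47), with 331 and 300 estimated reads. The other CIP/KIP inhibitors, listed for comparison, were higher in lung. Cdkn1a, which encodes the p53 target p21, was at 3.29 FPKM in spleen and 70.7 FPKM in lung, 21.5-fold higher in lung (15.8 to 30.3). Cdkn1c, which encodes p57, was at 1.37 and 5.66 FPKM, 4.15-fold higher in lung (2.63 to 6.68). The leading CIP/KIP gene was Cdkn1b in spleen, with 75.9% of the family's FPKM (70.6% to 80.6%), and Cdkn1a in lung, where Cdkn1b held 13.3% (11.8% to 14.8%). The ratio of Cdkn1b to Cdkn1a was 4.45 in spleen (3.22 to 6.34) and 0.165 in lung (0.145 to 0.188). The sum over these 3 genes was 19.3 FPKM in spleen and 88.1 FPKM in lung. Summed over families, D-type cyclin FPKM were 2.39 times the INK4 FPKM in spleen and 1.48 times in lung, and 11.2 times and 2.11 times the CIP/KIP FPKM.

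**Figure D3:**
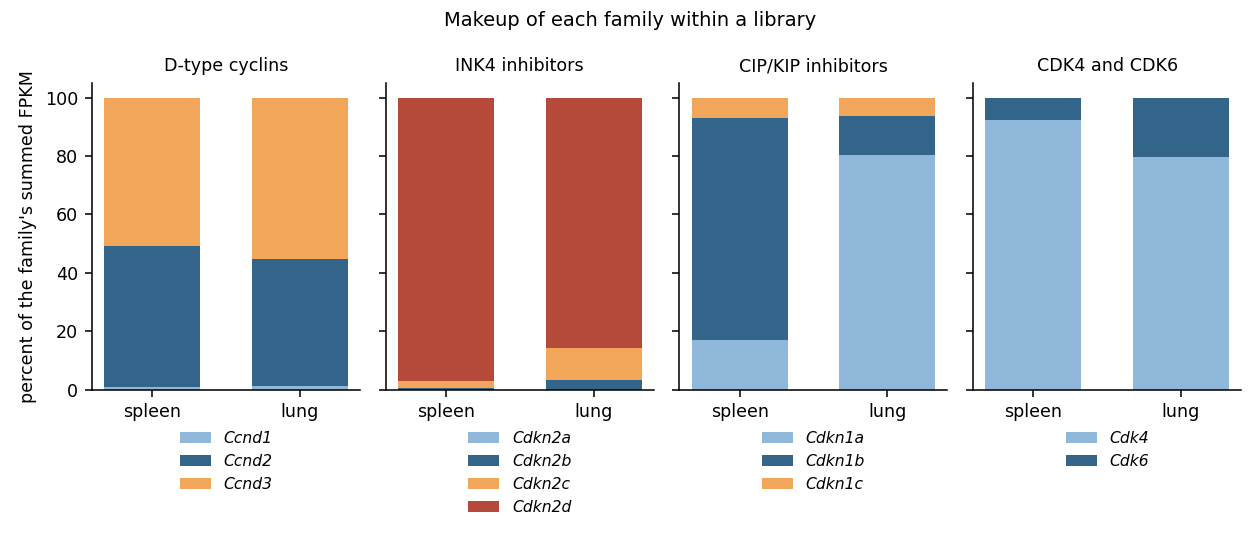
Percent of each family's summed FPKM that each gene held in the library of spleen Tregs and of lung Tregs. The largest CIP/KIP share was that of Cdkn1b in spleen and of Cdkn1a in lung, the shares of Cdkn2c, Cdkn2b and Cdk6 were larger in lung, and the D-type cyclins divided nearly evenly between Ccnd2 and Ccnd3 in both.

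Rb1 (chr14:73183673-73325822, minus strand), which encodes the retinoblastoma protein that holds back E2F, was at 19.5 FPKM in spleen and 20.4 FPKM in lung, a ratio of 1.04 (0.954 to 1.14), whose interval includes 1. Its relatives Rbl1 (p107) and Rbl2 (p130) were at 20.7 and 15.3 FPKM and at 38.6 and 37.5 FPKM in spleen and lung respectively. Rb1 made up 24.8% of the pocket protein FPKM in spleen and 27.8% in lung, and Rbl2 was the highest of the 3 in both. In order of level, the members ran Ccnd3, Ccnd2, Cdkn2d, Rb1, Cdkn1b, Cdk6, Cdkn2c, Ccnd1 and Cdkn2b in spleen. The intervals of Ccnd3 and Ccnd2 overlapped there, as did those of Cdkn2c and Ccnd1. In lung the order was Cdkn2d, Ccnd3, Ccnd2, Rb1, Cdk6, Cdkn2c, Cdkn1b, Cdkn2b and Ccnd1, with overlapping intervals for Cdkn2d and Ccnd3, for Cdkn2c and Cdkn1b and for Cdkn2b and Ccnd1.

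The direction of small ratios depended on how the libraries were scaled. FPKM summed to 599633 in spleen and 808853 in lung. Scaling both libraries to the same sum (TPM) shifted log2 ratios by -0.43. Equal upper quartiles shifted them by -0.18, a median ratio of 1 by -0.02 and equal T cell markers, a scaling chosen after the data had been seen, by 0.23. The floor of 0.1 was applied after scaling, so genes with a value at or near it did not follow these shifts. Under TPM the log2 ratio of Cdkn2d was -0.14 in place of 0.29, and Rb1 was at -0.37 in place of 0.06, with -0.12 under equal upper quartiles. Ccnd3 went from -0.10 to 0.13 when T cell markers were set equal. The direction was the same under all 9 other settings for Ccnd1, Cdk6, Cdkn2b and Cdkn2c, which were higher in lung, and for Ccnd2 and Cdkn1b, which were lower. The log2 ratio of Cdkn2c ranged from 2.28 to 2.98 and that of Cdkn2b from 1.68 to 3.05, the lowest being with a pseudocount of 1 FPKM.

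**Figure D4:**
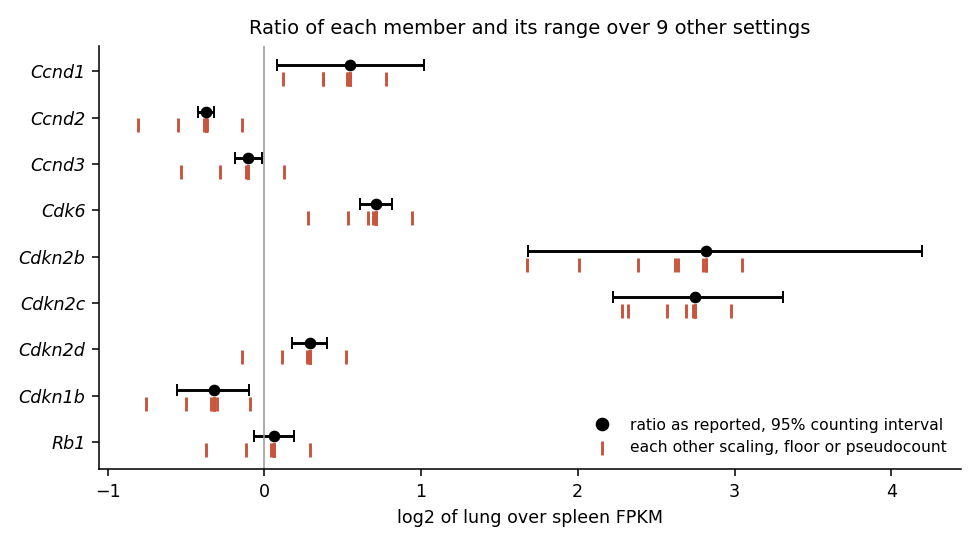
Log2 ratio of lung to spleen FPKM for the 9 members that reached 1 FPKM, with its 95% counting interval (black) and the values under the 9 other scalings, floors and pseudocounts (red ticks). All marks of Cdkn2b and Cdkn2c lie above 1, and those of Ccnd3, Cdkn2d and Rb1 lie on both sides of 0.

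Exons of 5 members overlap those of another gene on the opposite strand, and the counting is not stated to use strand, so reads of such partners cannot be told apart there. They are Ccnd1 with Oraov1 (8.59 FPKM in spleen and 8.54 FPKM in lung), Ccnd2 with 9330179D12Rik (3.30 and 0.614 FPKM) and the unlisted Gm43126, Ccnd3 with Bysl (19.6 and 15.9 FPKM), Rb1 with Lpar6 (31.2 and 45.4 FPKM) and Rcbtb2 (15.6 and 24.6 FPKM), and Cdk6 with Gm17590, which was not listed. Ccnd1 was lower than Oraov1, and Rb1 lower than Lpar6, in both libraries. The inhibitors Cdkn1b, Cdkn2b, Cdkn2c and Cdkn2d had no overlapping exons.

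The other genes of the pathway had ratios in both directions. Of 70 listed, 66 reached 1 FPKM, 13 (19.7%) were over 2-fold higher in lung and 12 (18.2%) over 2-fold lower, close to the 17.8% and 15.5% of all genes, and their median log2 ratio was 0.02. All 3 inhibitors outside the members were over 2-fold higher, namely Cdkn1a, Cdkn1c and Cdkn3, a phosphatase of CDK that was at 2.90 FPKM in spleen and 13.7 FPKM in lung. Together with the 5 inhibitors among the members, 5 of the 7 inhibitors that reached 1 FPKM were past 2-fold towards lung and 0 towards spleen. The shares of all genes were 17.8% and 15.5%. Cdkn2b and Cdkn1c were between 1 and 10 FPKM in the higher library, where 1301 of 4815 genes were over 2-fold higher and 1206 lower. At 10 FPKM or more the shares were 11.6% and 9.15%. The lists were chosen with earlier results of these data known, so the count of inhibitors is a description and not a test. Of the other CDKs and cyclins, 1 of 7 was over 2-fold higher, the mitotic cyclin Ccnb1 at 5.40 and 11.0 FPKM. Its log2 ratio of 1.03 was 0.60 under TPM and 0.85 under equal upper quartiles, so that it was then within 2-fold. Cdk2, the partner of cyclin E that p27 inhibits, was at 18.6 and 14.9 FPKM, and the mitotic kinase Cdk1 at 2.44 and 3.30 FPKM. The S phase cyclins Ccne1 and Ccna2 were at 6.46 and 9.19 FPKM and at 6.67 and 5.65 FPKM. Ccne2 stayed under 1 FPKM at 0.514 and 0.151 FPKM, and Ccnb2 was at 7.60 and 11.6 FPKM.

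Of the E2F and DP genes, 1 of 8 was over 2-fold higher and 1 over 2-fold lower. The activator E2f1 was at 1.70 FPKM in spleen and 5.74 FPKM in lung, 3.38-fold higher (2.40 to 4.76), and the E2F partner Tfdp2 was at 4.30 and 1.56 FPKM, 2.75-fold lower (1.87 to 4.05). The other activators E2f2 and E2f3 were at 5.69 and 3.69 FPKM and at 1.39 and 1.07 FPKM, and under TPM the log2 ratio of E2f2 was -1.06, past 2-fold lower. E2f4, the main partner of p130 in resting cells, was at 61.3 and 51.4 FPKM, the highest of the family. E2f5 and E2f6 were at 9.20 and 12.0 FPKM and at 14.6 and 24.0 FPKM, Tfdp1 was at 31.2 and 30.0 FPKM, E2f8 was at 0.526 and 0.976 FPKM, and E2f7 was at 0.0366 FPKM in spleen and listed at 0 in lung.

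Among the genes of p27 turnover and of regulation upstream of INK4, 2 of 12 (16.7%) were over 2-fold higher and 4 (33.3%) over 2-fold lower, beside 17.8% and 15.5% of all genes. Only 2 of the 12 were between 1 and 10 FPKM in the higher library, where 1 was higher and 0 lower. At 10 FPKM or more, 11.6% and 9.15% of all genes were past 2-fold higher and lower. Skp2 and Cks1b, which together direct p27 to degradation, were the highest by ratio. Skp2 was at 1.55 FPKM in spleen and 4.44 FPKM in lung, 2.87-fold higher (1.97 to 4.32). Cks1b was at 27.2 and 74.8 FPKM, 2.74-fold higher (2.31 to 3.26), although a retrogene copy, Cks1brt, could take or give reads. The Polycomb genes Bmi1 and Ezh2, whose products are known to repress the Cdkn2a and Cdkn2b locus, were the lowest by ratio among the genes that reached 1 FPKM. Foxo3, named after its values had been seen, did not reach it, at 0.720 FPKM in spleen and listed at 0 in lung. Bmi1 was at 15.8 FPKM in spleen and 4.97 FPKM in lung, 3.17-fold lower (2.69 to 3.75), and Ezh2 was at 18.9 and 7.52 FPKM, 2.52-fold lower (2.14 to 2.95). Foxo1 and Myc were just past 2-fold lower, at log2 ratios of -1.01 and -1.08. They were at -1.44 and -1.51 under TPM. With T cell markers set equal they were within 2-fold, at -0.78 and -0.85, while Fbxw7, at 0.96 as deposited, was past 2-fold higher at 1.19.

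Genes of S phase, many of them E2F targets, were mostly within 2-fold, with 2 of 17 higher and 1 lower. The replication factor Cdc45 was at 5.32 FPKM in spleen and 17.8 FPKM in lung, while thymidylate synthase, Tyms, was at 6.10 and 17.5 FPKM. The helicase subunit Mcm7 was at 33.9 and 21.3 FPKM, and the origin licensing factor Cdc6 at 1.54 FPKM and 0, which was 20.4-fold lower against 3 reads in lung, with a lower counting limit of 16.1-fold. Under TPM, Mcm7 was past 2-fold lower too, at a log2 ratio of -1.10. Of the genes of mitosis, 4 of 17 (23.5%) were over 2-fold higher and 6 (35.3%) over 2-fold lower, beside 17.8% and 15.5% of all genes. Most of them, 14 of 17, were between 1 and 10 FPKM in the higher library, where 2 were higher and 6 lower, beside 1301 and 1206 of all 4815 genes at that level. The spindle factor Tpx2 was at 1.78 FPKM in spleen and 10.3 FPKM in lung, 5.77-fold higher (4.51 to 7.44). The checkpoint kinase Bub1 was at 0.0701 FPKM, or 2.34 estimated reads, in spleen and at 1.01 FPKM in lung, 10.1-fold higher after the floor of 0.1 FPKM (counting interval 4.33 to 143). The mitotic kinases Aurka and Plk1 were at 2.91 and 2.71 FPKM in spleen and listed at 0 in lung, 19.1-fold and 21.1-fold lower against 3 reads, with lower counting limits of 15.1-fold and 16.7-fold. Proliferation genes thus lay on both sides. Under 60 estimated reads in spleen stood behind Aurka, Plk1 and Cdc6, a depth at which many genes had few or no reads in the other library.

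**Figure D5:**
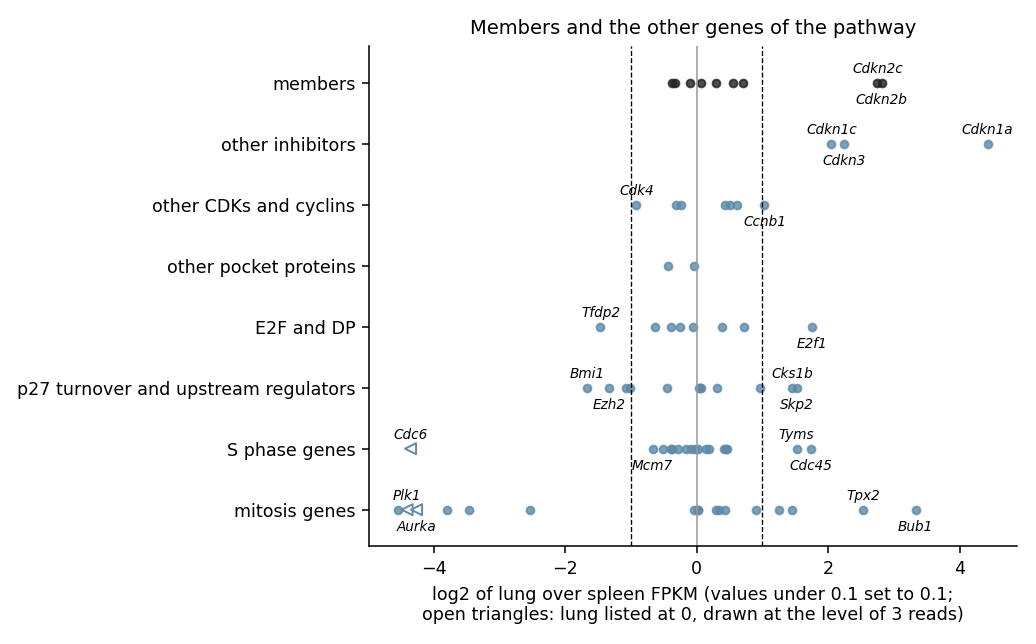
Log2 ratio of lung to spleen FPKM for the 9 members and 66 other genes of the pathway that reached 1 FPKM in the higher library, by list, with dashed lines at 2-fold and open triangles for genes listed at 0 in lung. The 3 other inhibitors lie to the right of the upper line with Cdkn2b and Cdkn2c, and the mitosis genes spread to both sides.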

How the data were processed

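GFP+CD4+ cells of spleen and lung gave 1 library each. The authors deposited FPKM per symbol, computed with Cuffdiff 2.2.1 from reads of 75 bases, which had been mapped to mm10 with TopHat 2.1.1. Bowtie2 was at version 2.2.8 and SAMtools at 0.1.18. The annotation used is not given in the sources used here.

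Ratios of lung to spleen were computed after FPKM under 0.1 were set to 0.1, and over 2-fold was counted among genes that reached 1 FPKM in either library. Reads were estimated from GENCODE M21 transcript lengths, found for 94.5% of symbols, with a fragment length of 200 (SD 80, shortest 75), from the value of 1 read that 247 genes in spleen and 170 in lung shared within 1%. Intervals of ratios are exact conditional binomial, those of shares exact Clopper-Pearson. The value of 1 read, the calls past 2-fold and the intervals of ratios were tested on simulated data. The simulation used the same transcript and fragment lengths, so it did not test those lengths. Its reads varied by counting error alone, and its intervals used the known value of 1 read. It therefore did not test the intervals against amplification or an error in that value. The planted changes were well past 2-fold and on genes with many reads, so calls near 2-fold or at few reads were not tested. Shares, scalings, overlaps and motif matches were not simulated. The members and lists were chosen with earlier results of these data known. All 10 members and the inhibitor, CDK and cyclin, pocket protein and E2F lists were named in full, and of the other pathway lists the 2 highest and 2 lowest ratios. Foxo1, Foxo3, Myc and Fbxw7 were named besides, after their values had been seen. Floors, pseudocounts, scalings, filters and folds were varied. The software was Python 3.11.15 (scipy 1.17.1, numpy 2.4.6, matplotlib 3.10.9 and pandas 2.3.3).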

Additional observations from a re-analysis of the deposited data

How the results depend on the processing

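The members over 2-fold higher in lung numbered 2 and those lower 0, and the first count was 1 with a minimum of 10 FPKM in the higher library or of 1 FPKM in both, since Cdkn2b was then not counted. The members' median log2 ratio of 0.29 was -0.14 under TPM, 0.11 with equal upper quartiles, 0.061 with that minimum of 10 FPKM and 0.52 with T cell markers set equal, a scaling chosen after the data had been seen. The pathway genes past 2-fold, 13 higher and 12 lower as deposited, were 11 and 15 under TPM. With T cell markers set equal they were 15 and 10, so the direction with more genes depended on the scaling. The 13 that were higher became 8 with at least 10 FPKM and 5 at 4-fold. The 12 lower ones became 4 with at least 10 FPKM, 5 with at least 1 FPKM in both libraries and 7 at 4-fold. These filters and folds admit fewer genes. By estimated reads in place of FPKM, which weights long transcripts, the share of Cdk6 beside Cdk4 was 33.6% in spleen and 61.0% in lung and that of Ccnd2 among the cyclins 75.4% and 71.5%, with the directions as before. With 1 library per tissue, variation between mice and between amplifications was not measured, and no paired analysis was possible because each group has 1 library. Few reads limit Cdkn2b most, then Cdkn2c and Ccnd1, and p16Ink4a and p19Arf are not separated.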
